A study of Oryza sativa with 24 samples.

Results

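The data described here are the 40 small RNA spot sets that stood highest above the untreated state in rice seedlings under osmotic stress, with the other 184 sets of the array for comparison. A spot set is 4 neighbouring spots printed with 1 probe code. Its level is the mean log2 of the quantile-normalized spot intensity plus 50, which compresses differences of dim sets. The score that chose the members was the mean of a set's 5 treated time means minus its 0 h mean, and the 40 highest scores made the list. Because the score used every array and every contrast against 0 h, the levels, the differences from 0 h and the library agreement of the score are given as a description with no test. Tests were run on differences among the treated times, which have no weight on 0 h and were not themselves the score. The treated levels did enter the score, with equal weight, so the list can favour sets high at times where sets differ most.

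Rice (Oryza sativa) seedlings were grown in Yoshida's culture solution in light and dark periods, and the treatment was 15% PEG6000. The groups were 0 h, taken as the untreated state, and 0.5, 2, 6, 24 and 48 h of treatment, each with 2 small RNA libraries and 2 hybridizations per library, 24 arrays and 12 libraries in all. The cultivar, the age of the seedlings and the part of the plant used are not given in the labels. The design text calls the libraries biological replications without saying whether they came from separate plants or pools, so p-values measure the spread between libraries. Untreated seedlings kept for the same hours were not analysed here, so time in PEG6000 and age cannot be told apart. If the course began at 1 clock time, 24 and 48 h share the time of day of 0 h. The 0.5, 2 and 6 h groups then do not, so their differences from 0 h and from the late times also mix in time of day.

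PEG6000 is a large polymer that lowers the water potential of the solution around the root, and plants exposed to it take up water less easily, as in dry soil. Plant microRNAs are short RNAs that Dicer-like enzymes cut from hairpin precursors and that guide Argonaute proteins to complementary mRNAs, which are then cut or less translated. Many of their best-known targets are transcription factors and hormone receptors, and several families respond to drought and salt in rice and other plants. The files give the probes by codes of a letter and a number and pair them with no miRNA name or sequence, so no family, target or sequence can be attached to a member, and the plant part could not be checked against marker genes. For the same reason few codes are named. Members were 35 of the 210 sets with a code starting with R and 5 of the 14 with a code starting with N, letters that the files do not explain.

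The arrays differed in brightness, with a median spot intensity of 152 to 566 and a 5th percentile of 11.3 to 194. The 5th percentile averaged 45.6 at 0 h, 73.8 at 0.5 h, 97.2 at 2 h, 43.9 at 6 h, 64.8 at 24 h and 94.1 at 48 h. Members covered a wide range of brightness, with a raw 0 h intensity of 46.6 at the lowest, 645 at the median and 47146 at the highest, against a median of 213 for the other 184 sets. Of the members, 12 had a raw 0 h intensity under 150 (30% of them, against 42.4% of the other sets). Such sets are called dim here, and the limit lies just under the lowest array median of 152. Spots at the scanner ceiling of 65535 occurred in 3 members and 8 other sets, and the level of such a spot is a lower bound. With 2 libraries per time, the number of libraries sets the precision of the values.

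The list had a short steep top and a long shallow tail. The scores were 0.17 at the lowest, 0.35 at the median and 3.79 at the highest on the log2 scale, against a median of -0.09 over the other sets. A score above 1 was seen in 5 members, one between 0.5 and 1 in 9, one between 0.25 and 0.5 in 16 and one under 0.25 in 10. In 8 members the SD of the score over the 2 libraries was larger than the score itself. The lowest member was R49, with a score of 0.17 (-0.24 in library 1 and 0.57 in library 2), and the first set outside the list was R236, with 0.16 (0.19 and 0.13). The 2 sets on either side of the limit thus differed by less than their libraries did, and 60 sets outside the list also had a score above 0.

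**Figure D1:**
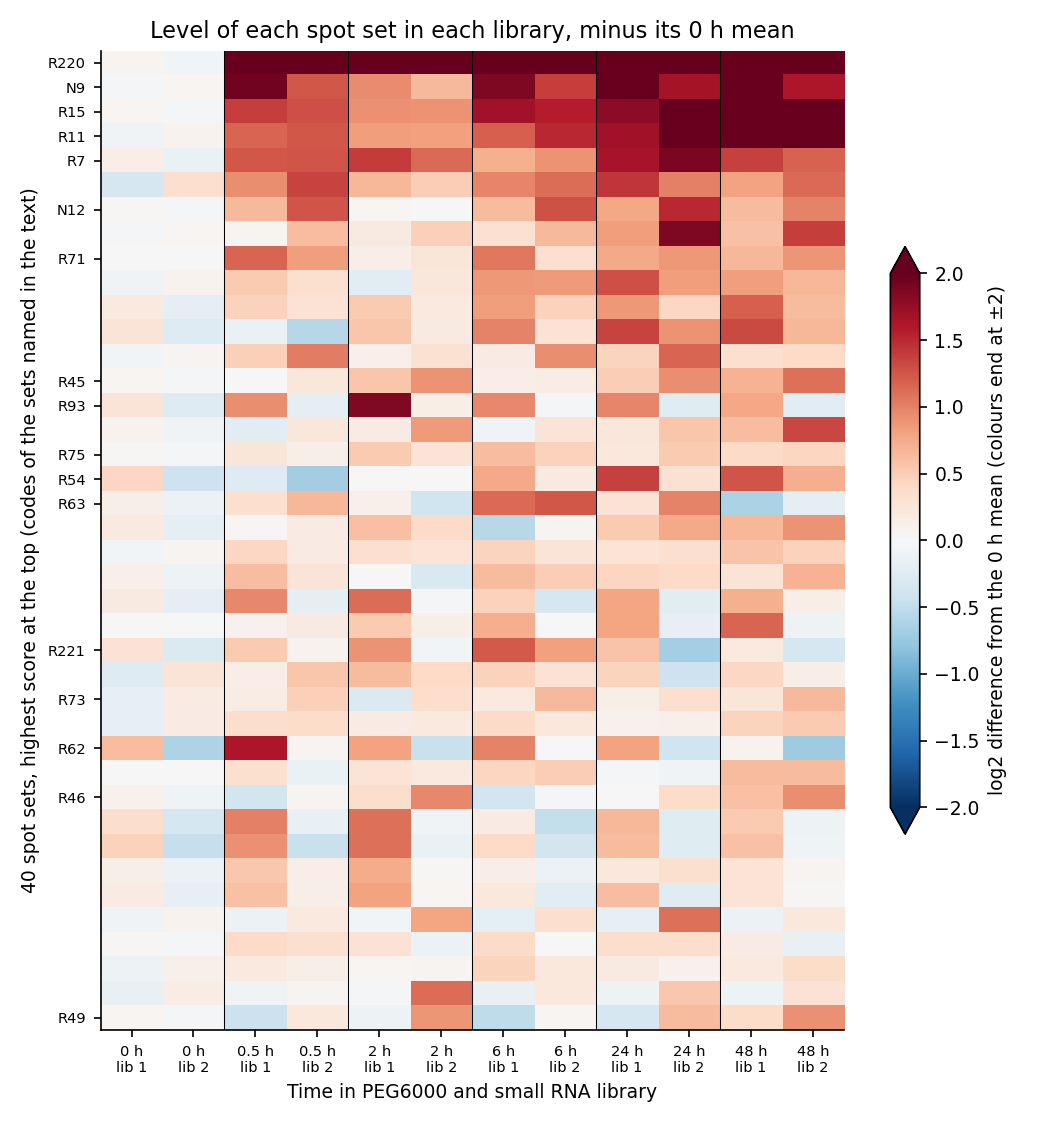
Level of each of the 40 spot sets (rows, highest score at the top) in each of the 12 libraries (columns, by hours in PEG6000), as the log2 difference from the set's own 0 h mean. Red is above and blue below the 0 h mean, and colours end at 2, so that R220 is off the scale at all treated times. The top rows are red in both libraries at all treated times, and in the lower rows the libraries often differ in colour.

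R220 stood apart from all other sets, with a score of 3.79 ± 0.28 (SD over libraries, n = 2), a fold of 13.9 on the scale with the offset. In library 1 it stood at 8.40 at 0 h, 12.32 at 0.5 h, 11.45 at 2 h, 12.17 at 6 h, 12.88 at 24 h and 13.17 at 48 h. In library 2 it stood at 8.29, 11.85, 11.16, 11.83, 12.34 and 12.22 at the same times. All 10 treated libraries lay at least 2.75 above both 0 h libraries, and most of the gain was already there after 0.5 h. In bulk seedling RNA, more RNA per cell and more cells of a type that holds it cannot be told apart.

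N9 was next, with a score of 1.62 ± 0.48 (SD over libraries, n = 2). Its levels in library 1 were 6.76 at 0 h, 8.72 at 0.5 h, 7.74 at 2 h, 8.66 at 6 h, 9.08 at 24 h and 9.41 at 48 h. Those in library 2 were 6.83, 8.04, 7.45, 8.18, 8.46 and 8.42. Every treated library lay above both 0 h libraries, with library 1 the higher at each treated time. The raw 0 h intensity of N9 was 46.6, below the offset of 50 and the lowest of the members, so the size of its difference depends on the offset and is not resolved.

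R15 and R11 had nearly the same score, 1.59 ± 0.10 and 1.53 ± 0.08 (SD over libraries, n = 2 each). R15 stood at 7.52, 8.87, 8.40, 9.17, 9.27 and 9.51 in library 1 and at 7.45, 8.77, 8.38, 9.05, 9.47 and 9.88 in library 2 (0, 0.5, 2, 6, 24 and 48 h). R11 stood at 7.56, 8.80, 8.48, 8.83, 9.32 and 9.74 in library 1 and at 7.72, 8.88, 8.46, 9.14, 10.17 and 9.87 in library 2. Both were above 0 h in every treated library, lower at 2 h than at 0.5 h and highest at the late times, and both were dim at 0 h (raw intensities of 104 and 147). R7 had a score of 1.27 ± 0.19 (SD over libraries, n = 2) and another course, with its highest mean at 24 h. It stood at 9.13, 10.24, 10.39, 9.71, 10.65 and 10.36 in library 1 and at 8.86, 10.25, 10.13, 9.89, 10.88 and 10.17 in library 2. Its 6 h libraries were the lowest of its treated libraries, and all of its treated libraries lay above those of 0 h.

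**Figure D2:**
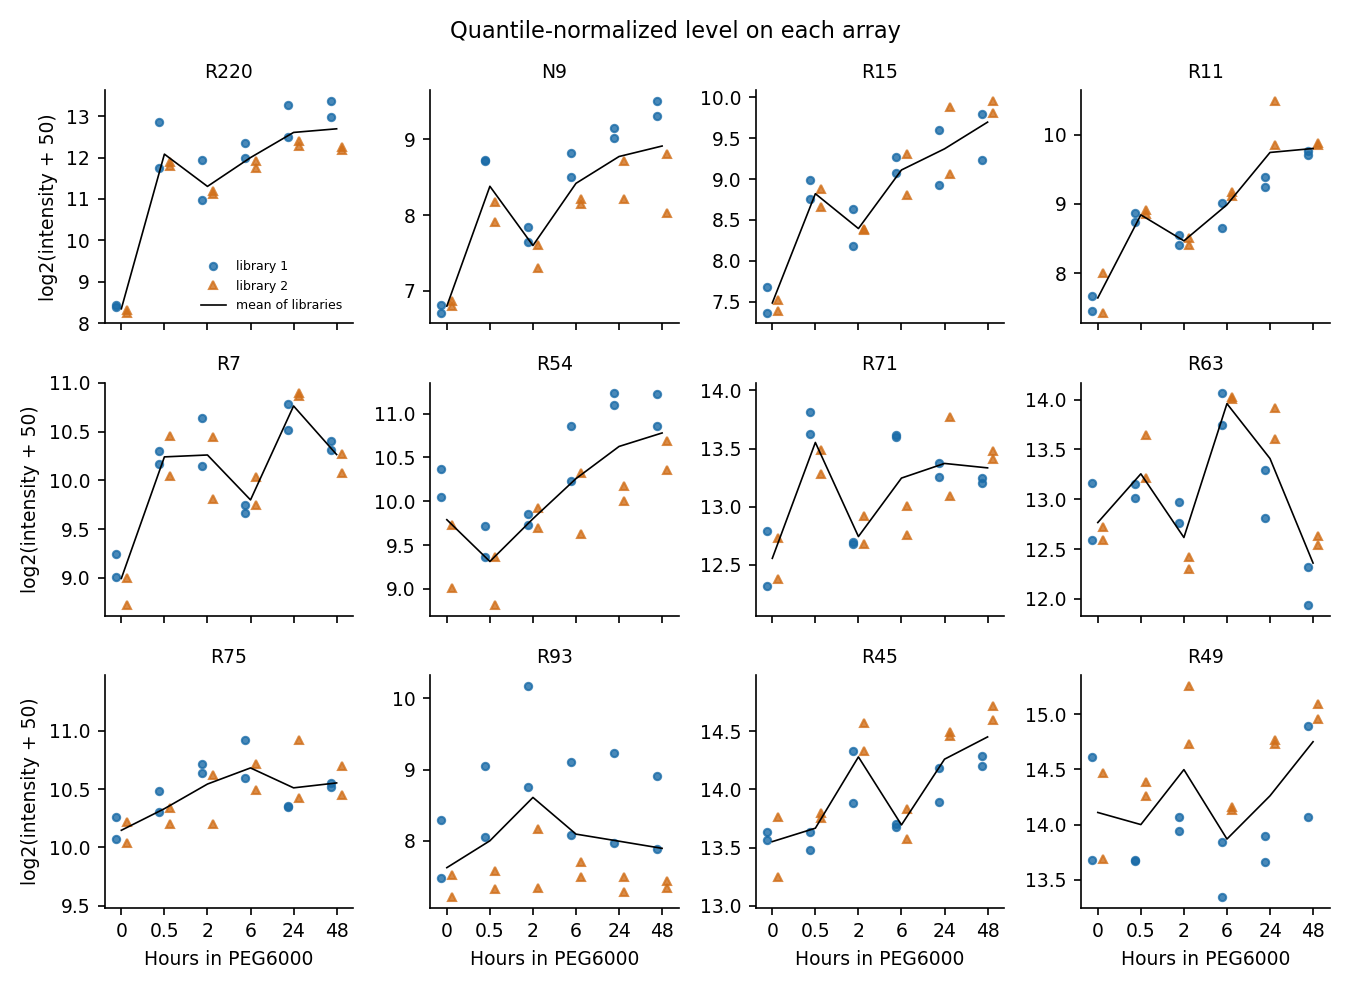
Level of 12 members on each of the 24 arrays (log2 of intensity plus 50, quantile normalized) against hours in PEG6000, at even spacing. Circles are arrays of library 1, triangles those of library 2 and the line is the mean of the libraries, and each panel has its own vertical range. R220, N9, R15, R11 and R7 have all treated arrays above those of 0 h, while R93 and R49 have treated arrays of one library at or below the other library's 0 h arrays.

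Across the members the median difference from 0 h was 0.35 at 0.5 h, 0.39 at 2 h, 0.47 at 6 h, 0.38 at 24 h and 0.52 at 48 h, while the median over all sets lay between -0.07 and -0.003. The mean of 35, 37, 36, 38 and 37 of the 40 members lay above the 0 h mean at these times. These differences share the 0 h libraries and were used to choose the members. The rule also favours a larger part of the summed intensity for the members under treatment. In raw intensities, without normalization, that part was 23.7% and 24.1% (library 1 and library 2) at 0 h. It was 29.4% and 31.9% at 0.5 h, 27.8% and 31.3% at 2 h, 32.8% and 32.6% at 6 h, 33.9% and 34.1% at 24 h, and 33.5% and 37.6% at 48 h. Such a sum gives bright sets more weight than dim ones.

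A stricter count asked in how many members both libraries of a time lay above both libraries of 0 h. This held for 21 members at 0.5 h (15.6% of all sets), 20 at 2 h (14.7%), 25 at 6 h (18.3%), 22 at 24 h (14.3%) and 26 at 48 h (16.1%), and nothing is read from these counts, since the rule used the same contrasts. The 2 h count was 12 with median scaling. Here and below, a percent of all sets after a count of members is the share of the whole array, members included, meeting the same condition. By member, 12 met it at all 5 treated times, 5 at 4 times, 7 at 3, 5 at 2, 3 at 1 and 8 at none. Of the other 184 sets, 1 met it at all 5 times, 1 at 4 times, 4 at 3, 7 at 2, 28 at 1 and 143 at none. The 32 members that met it at any time did so first at 0.5 h in 21 cases, at 2 h in 6, at 6 h in 3, at 24 h in 0 and at 48 h in 2. The 41 other sets did so first at these times in 14, 11, 9, 2 and 5 cases. The difference between these tallies is one the rule made.

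The libraries agreed on the sign of the score in most members and much less on its size. The score was above 0 in both libraries in 36 of 40 members and in 24 of the other 184 sets, a gap that the rule favours. In 38 members the score was above 0 in both sets of hybridizations. The median absolute difference of the score between libraries was 0.26, close to the median score of 0.35, and 20 members scored higher in each library. Over the members the Pearson correlation of the library scores was 0.82, and over the 35 members left without the 5 highest it was -0.07. A choice on the mean of both libraries lowers such a value, so it cannot show that the agreement in size rested on those 5. Over all sets the Pearson correlation was 0.77 and the Spearman correlation 0.44. All of these are correlations across spot sets that share arrays, and the members were selected on the mean of both libraries, so they are descriptions only.

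Choosing by 1 library and reading the other gives a view of the top that is less tied to the rule. The 40 highest sets of library 1 had a median score of 0.22 in library 2, where 31 of them were above 0, against 42.9% of all sets. The 40 highest sets of library 2 had a median score of 0.26 in library 1, where 30 were above 0, against 46.4% of all sets. The lists shared 22 sets, 55.0% of each. These 22 were all members, which the rule nearly fixes, since it averages both libraries. Each list rests on 1 library at 0 h.

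**Figure D3:**
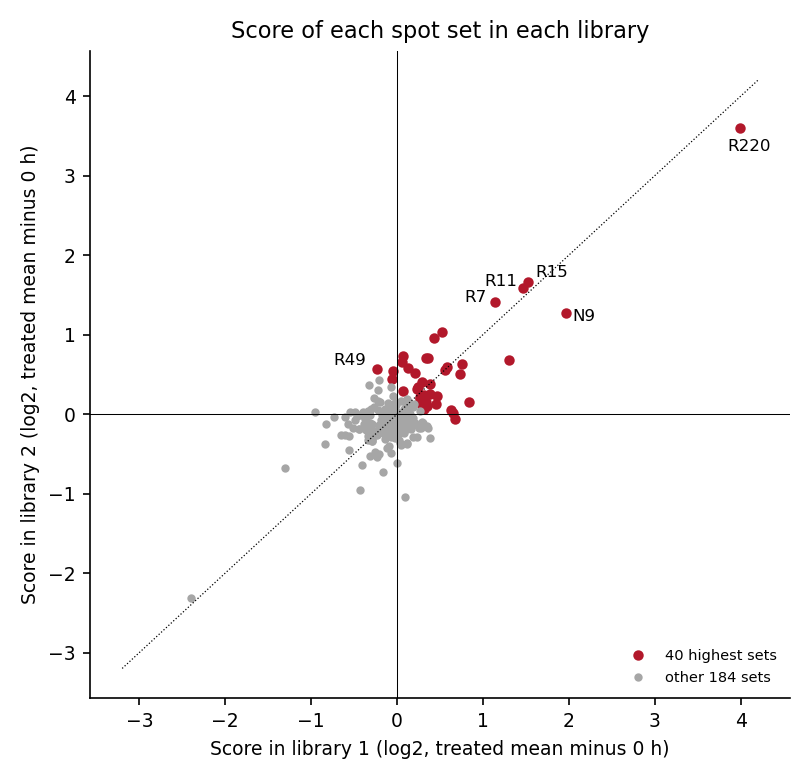
Score of each spot set in library 2 (vertical) against library 1 (horizontal), each the log2 treated mean minus the 0 h level of that library; red points are the 40 members, grey points the other 184 sets, and the dotted line marks equal scores. R15 and R11 lie near the line, R220 and N9 lie below it (higher in library 1), and R7 lies above it. Over the 35 members other than these 5 the correlation was -0.07, a value lowered by the choice on the mean of both libraries.

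R75 and R93 show the range of agreement at a similar score. R75, the member with its highest mean at 6 h and the highest score among those, had a score of 0.38 in each library. It stood at 10.17, 10.39, 10.68, 10.76, 10.35 and 10.53 in library 1 and at 10.13, 10.27, 10.41, 10.61, 10.67 and 10.57 in library 2. Each treated library lay above both 0 h libraries, by a small margin at 0.5 h. R93, the leading member of those highest at 2 h, scored 0.84 in library 1 and 0.15 in library 2. It stood at 7.88, 8.55, 9.47, 8.59, 8.60 and 8.40 in library 1 and at 7.36, 7.45, 7.75, 7.60, 7.38 and 7.39 in library 2. Library 2 never reached the 0 h level of library 1, so at no treated time were both libraries above both of 0 h.

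R49 differed most between libraries. It stood at 14.14, 13.68, 14.004, 13.60, 13.78 and 14.48 in library 1 and at 14.08, 14.32, 14.99, 14.15, 14.75 and 15.02 in library 2. Library 2 was above its 0 h level at all treated times, and library 1 was below its own except at 48 h, and the score was -0.18 with median scaling. R73, the member with most saturated spots (named after its values were seen), had 0, 2, 1, 6, 1 and 4 of 16 spots at the ceiling at 0, 0.5, 2, 6, 24 and 48 h. Its score was 0.29, and 0.010 with median scaling. The treated levels with spots at the ceiling are lower bounds.

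The SD between the libraries of a time was larger in the members than in the other sets once treatment had begun. Its median over the members was 0.15 at 0 h, 0.29 at 0.5 h, 0.24 at 2 h, 0.26 at 6 h, 0.35 at 24 h and 0.27 at 48 h. Over the other 184 sets it was 0.14, 0.12, 0.16, 0.14, 0.11 and 0.12 at the same times. The SD between hybridizations of a library had a median of 0.17 in the members and 0.12 in the other sets. These medians are descriptions of a list chosen on the same arrays.

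The members differed in when they were highest. The highest treated mean fell at 0.5 h in 3 members, at 2 h in 8, at 6 h in 5, at 24 h in 8 and at 48 h in 16, and in the other 184 sets at these times in 47, 53, 40, 12 and 32. The lowest treated mean of a member fell at 2 h most often, in 14 of 40. At 0.5 h, 20 members had reached at least 50% of their highest difference from 0 h, while 11 first did so at 2 h, 7 at 6 h and 2 at 24 h. These differences share the 0 h libraries that chose the members. A low 0 h value alone moves a member toward an early count, so no timing is read from this tally. Of the 12 dim members 4 were highest at 2 h, 3 at 24 h and 5 at 48 h, while the 28 brighter ones were highest in 3, 4, 5, 5 and 11 cases at 0.5, 2, 6, 24 and 48 h. The 5th percentile of the arrays was also high at 2 and 48 h, and its part in these counts was not tested. The treated levels also entered the score, and the part of that choice in the counts was not tested either.

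**Figure D4:**
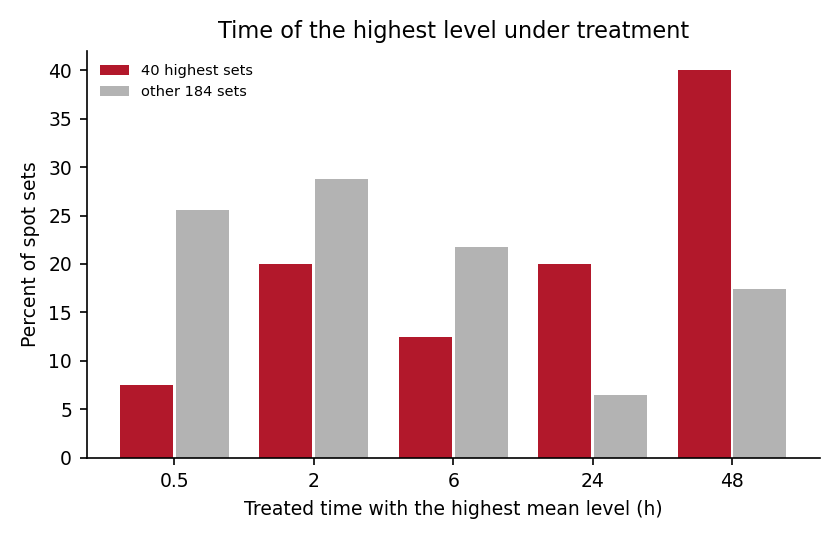
Percent of spot sets (vertical) whose highest treated mean level fell at each time in PEG6000 (horizontal), for the 40 members (red, left) and the other 184 sets (grey, right). Of the members 16 of 40 were highest at 48 h and 3 of 40 at 0.5 h.

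The first test of timing compared the late times with the early ones, the mean of 24 and 48 h minus the mean of 0.5, 2 and 6 h. By limma with Benjamini-Hochberg adjustment over all sets of the array, R15 and R11 rose further at the late times. This fit had no term for library number. In it R15 and R11 were the only sets to pass upward (0.893% of all sets), and 0 sets, members or others, passed downward. In the fit blocked on library number, 16 sets of the array passed upward and 11 downward. R15 and R11 were also the only sets whose late libraries all lay above all early libraries (0.893%). R15 averaged 9.53 at the late times and 8.77 at the early ones, a difference of 0.76 ± 0.09 (SE; limma adjusted p = 0.00653). R11 averaged 9.77 and 8.77, a difference of 1.01 ± 0.16 (SE; limma adjusted p = 0.0235). R15 passed without any 1 library, while R11 passed without either library of 24 h and missed the threshold without any 1 of the other 10 (adjusted p = 0.0502 to 0.100). With cyclic loess neither passed (adjusted p = 0.0686 for R15 and 0.0737 for R11), and with first hybridizations only they had an adjusted p of 0.205 and 0.0991.

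Members leaned to the late side more widely than these calls. The late levels entered the score, so part of this lean can come from the choice of members, which was not tested. The late minus early difference was above 0 in 29 members and below 0 in 11, with a median of 0.13 against -0.02 over all sets, and 12 members (25 sets in all) had an unadjusted limma p under 0.05. Both libraries gave a positive difference in 20 members (24.1% of all sets) and a negative one in 6 (31.2% of all sets). In the fit blocked on library number, 14 members rose at the late times (7.14% of all sets) and 2 fell (4.91% of all sets). The count of 16 members called in either direction dropped to 10 when library 1 of 0.5 h was left out, and likewise for library 2 of 24 h.

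The block removes a library difference that a set keeps through the course, and that difference was large in several members. Among those past the threshold with the block, R11 (1.01) and R54 had the largest late rise, and R221 and R62 the largest late fall; R54, R221 and R62 were named after their values were seen. R54 stood at 10.21, 9.54, 9.80, 10.54, 11.16 and 11.04 in library 1 and at 9.37, 9.09, 9.81, 9.97, 10.09 and 10.52 in library 2. It was lower at 0.5 h than at 0 h in both libraries and highest late, with a late minus early difference of 0.91 ± 0.14 (SE with the block; limma adjusted p = 0.00275, and 0.196 without it). Its score was -0.05 without library 2 of 0 h.

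R221 stood at 14.26, 14.49, 14.86, 15.19, 14.53 and 14.16 in library 1 and at 13.67, 14.04, 13.91, 14.79, 13.28 and 13.63 in library 2. Both libraries were highest at 6 h and back near their 0 h level at 48 h, and with median scaling the score was -0.0070. The late minus early difference was -0.64 ± 0.13 (SE with the block; limma adjusted p = 0.00822, and 0.527 without it). R62 stood at 11.24, 12.24, 11.43, 11.61, 11.42 and 10.69 in library 1 and at 9.996, 10.67, 10.17, 10.61, 10.21 and 9.90 in library 2. Library 1 was the higher throughout, and both libraries were highest at 0.5 h and below their 0 h level at 48 h. Its difference was -0.57 ± 0.11 (SE with the block; limma adjusted p = 0.00778, and 0.922 without it), and its score was -0.35 without library 2 of 0 h. Its late fall was not called with the block without normalization (-0.35, adjusted p = 0.252) or with first hybridizations only (adjusted p = 0.0791).

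Of the members with the highest scores, R220 had a late minus early difference of 0.86 that missed the threshold without the block (limma adjusted p = 0.13) and passed with it (adjusted p = 0.00119). N9 had one of 0.71 (adjusted p = 0.288, and 0.00778 with the block) and R7 one of 0.41 (adjusted p = 0.13, and 0.0183 with the block). R75 had a difference of 0.01 and R71 one of 0.17, and neither passed in either fit. With the block, the 5 members with the highest scores were thus all higher late than early.

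The second test set 2 h against the mean of its neighbours, 0.5 and 6 h. Without the block 1 member, R15, fell at 2 h, and 5 sets of the whole array did (2.23% of all sets). Of the members 0 passed upward, while 11 members and 36 sets in all had an unadjusted limma p under 0.05. R15 averaged 8.39 at 2 h and 8.97 at the neighbouring times, a difference of -0.57 ± 0.12 (SE; limma adjusted p = 0.0418). It passed without either library of 48 h and missed the threshold without any 1 of the other 10 (adjusted p = 0.0584 to 0.198). R15 also missed it without normalization (0.425), with median scaling (0.101), with cyclic loess (0.263), with first (0.176) or second hybridizations only (0.456) and with the library as a random effect (0.121). All libraries of 2 h lay below all those of the neighbouring times in 12 members (16.5% of all sets) and above them in 3 (10.3%). The share was 30% of members below and 7.5% above.

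With the block 8 members fell at 2 h (6.25% of all sets) and 2 rose (6.70% of all sets). The count of 10 dropped to 6 when library 1 of 0.5 h was left out, to 6 for library 1 of 2 h and to 3 for library 2 of 2 h. The split among members was 5 up and 10 down without normalization, 3 up and 17 down with median scaling, and 5 up and 6 down with cyclic loess. Shares over all sets were not counted for these settings. The median over the members was -0.03, against -0.002 over all sets, and it was -0.21 with median scaling and 0.04 with cyclic loess, so the list as a whole had no settled direction at 2 h.

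The largest fall at 2 h with the block was in R63, and the next in N12, both named after their values were seen. R63 stood at 12.88, 13.08, 12.87, 13.90, 13.05 and 12.13 in library 1 and at 12.65, 13.43, 12.36, 14.01, 13.76 and 12.59 in library 2. It was highest at 6 h in both libraries and at or below its 0 h level at 2 and 48 h, and its difference at 2 h was -0.99 ± 0.22 (SE with the block; limma adjusted p = 0.0119, and 0.0725 without it). N12 stood at 7.43, 8.05, 7.45, 8.04, 8.18 and 8.03 in library 1 and at 7.38, 8.67, 7.39, 8.68, 8.91 and 8.40 in library 2. Its 2 h libraries were no more than 0.022 from their 0 h levels while its other treated libraries were at 8.03 or above, and its difference at 2 h was -0.94 ± 0.18 (SE with the block; limma adjusted p = 0.0083, and 0.0985 without it). Without library 2 of 2 h both missed the threshold with the block (adjusted p = 0.145 for R63 and 0.092 for N12), as did R63 with first hybridizations only (0.0585) and N12 with second hybridizations only (0.165).

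The 2 members that rose at 2 h with the block were R46 and R45, named after their values were seen. R46 stood at 14.03, 13.58, 14.29, 13.56, 13.93 and 14.53 in library 1 and at 13.85, 13.99, 14.90, 13.92, 14.30 and 14.88 in library 2. R45 stood at 13.60, 13.56, 14.11, 13.69, 14.04 and 14.25 in library 1 and at 13.51, 13.78, 14.45, 13.70, 14.48 and 14.65 in library 2. Both had a high level at 2 h, a low one at 6 h and a high one again at 48 h, in both libraries. The difference at 2 h was 0.84 ± 0.14 for R46 and 0.60 ± 0.13 for R45 (SE with the block; limma adjusted p = 0.00761 and 0.0106, and 0.0901 and 0.0985 without it). Neither passed when library 2 of 2 h was left out (adjusted p = 0.0562 and 0.105) or with median scaling (0.102 and 0.241), where the score of R46 was -0.11. R45 also missed it without normalization (adjusted p = 0.125) and with second hybridizations only (0.152).

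R71 led the members that were highest at 0.5 h, with a score of 0.69 ± 0.09 (SD over libraries, n = 2). It stood at 12.56, 13.72, 12.69, 13.61, 13.32 and 13.22 in library 1 and at 12.56, 13.39, 12.80, 12.89, 13.43 and 13.45 in library 2. At 2 h both libraries were near the 0 h level, and the difference from the neighbouring times was -0.66 ± 0.18 (SE with the block; limma adjusted p = 0.0379, and 0.108 without it). R220 and N9 were also lower at 2 h than at the neighbouring times, by differences of -0.74 and -0.80 (adjusted p = 0.24 and 0.254, and 0.00951 and 0.0137 with the block).

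**Figure D5:**
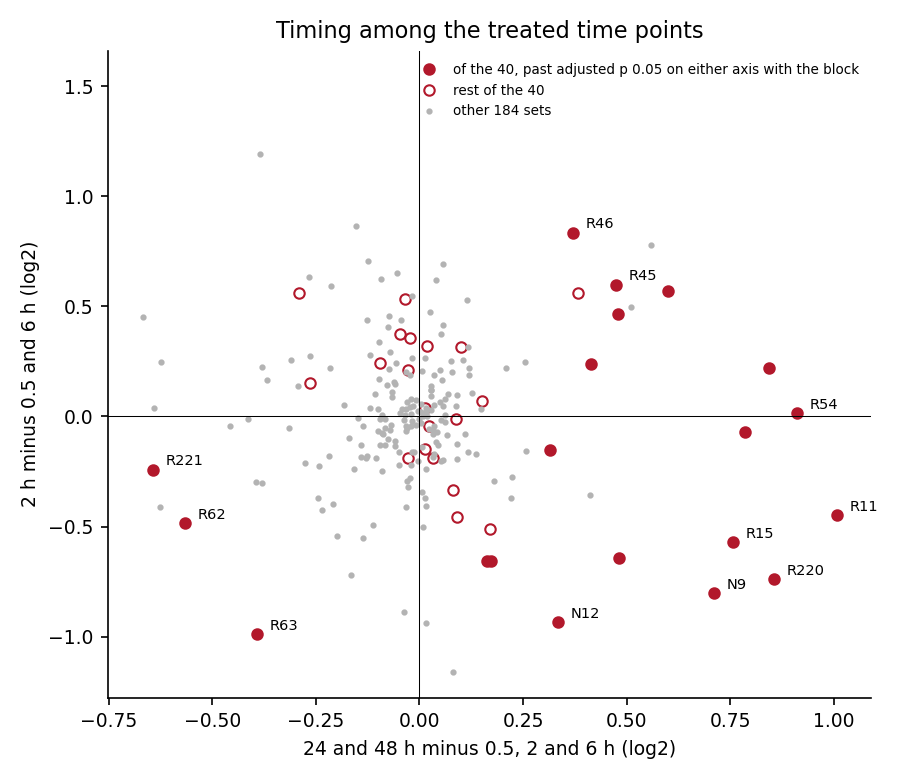
Difference of 2 h from the mean of 0.5 and 6 h (vertical, log2) against the difference of 24 and 48 h from 0.5, 2 and 6 h (horizontal, log2) for each spot set. Filled red points are members past an adjusted p of 0.05 on either axis with the library block, open red points the other members and grey points the other 184 sets. R220, N9, R15 and R11 lie at the lower right, high late and low at 2 h, while R46 and R45 lie at the upper right and R221 and R62 at the lower left.

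The third test asked whether a level differed between any of the 5 treated times. Without the block the moderated F test passed 1 member, R15 (limma adjusted p = 0.0273), and 2 sets of the whole array (0.893% of all sets). An unadjusted p under 0.05 was seen in 14 members and 32 sets in all. R15 missed the threshold without any 1 library of 0.5, 2 or 6 h or without library 2 of 48 h (adjusted p = 0.0645 to 0.189), and likewise without normalization, with median scaling, with cyclic loess and with first or second hybridizations only (0.0656 to 0.287), and 2 members passed without either library of 24 h. With the block 19 members passed (18.3% of all sets), R15 (limma adjusted p = 0.00265), R220 (0.00357) and R11 (0.0038) among them.

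With the block, 21 members passed at least 1 of the 3 tests (22.3% of all sets) and 19 passed none. Of the 21, 16 passed both the late test and the F test (11.2% of all sets), 8 both the 2 h test and the F test (9.82%), and 6 both the late and the 2 h test (4.02%). In 4 members a late rise and a fall at 2 h were both called (1.79% of all sets). The 19 others had a median score of 0.29 and a highest one of 0.99, and a missed threshold does not show that their levels were steady.

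Members also lay close together in code number. A member with a neighbouring number was found for 25 of the 40 members (62.5%), and for 41 of the other 184 sets (22.3%). The longest runs held 6 codes, from R49 to R54, and 5 codes, from R71 to R75. On the array, 155 of 206 steps of 1 in the R numbers led to the same grid row and column of another sub-grid. By grid row, row 1 held 9 members, row 4 held 8, row 5 held 6 and row 8 held 5 of 16 sets each, and the 4 sub-grids held 11, 8, 9 and 12 of 56 sets each. Position on the array and order of the codes cannot be told apart in these files.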

How the data were processed

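The deposited scanner values are spot intensities with local background on a linear scale, 1 colour (Cy5), per the file headers. In the authors' deposited series table each spot has its intensity minus its background (largest difference 9e-06). No further step of theirs is stated in the labels or headers. Intensities plus 50 were log2 transformed and quantile normalized over the 24 arrays, then averaged over the 4 spots of a set, the 2 hybridizations of a library and the libraries of a time. The 223 codes form 1 set each, except R105, which lies at 2 places and forms 2 sets, and no set was filtered out.

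limma 3.58.1 in R 4.3.3 fitted the 12 libraries with time as a factor (6 residual degrees of freedom). Its moderated tests were two-sided, and p-values were adjusted by the Benjamini-Hochberg method over all sets, with a threshold of 0.05. The library numbers were found to pair the samples in the data: over all sets, library 2 minus library 1 correlated in each of the 15 pairs of times (0.492 to 0.766, median 0.721). What same-numbered libraries share is not stated in the labels. A blocked fit, with the library number as a term (5 residual degrees of freedom), is therefore given beside the results that it moved. The typical fitted SD (median over sets) was 0.15 in the blocked fit and 0.19 in the other. The fit was also run on data simulated with independent noise and a constant library difference. That setting is simpler than these arrays, and nothing is read from it.

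The members and comparisons were chosen with earlier results of these data known. Named sets were the 2 highest scores, the sets on either side of the limit, up to 2 called members per direction of each test, the member that differed most between libraries and, for each time, the highest-scoring member that peaked there. Alternatives covered the background correction (normexp), the offset (16 and 100), the scaling, the spot average, single hybridizations, all hybridizations with the library as a random effect (statmod 1.5.0), the deposited table, the treated libraries alone, the sets brighter than the median, single libraries in the rule and each library left out. Their combinations with the block were added after the data had been seen. Local background was above 0 for 83 spots over the 24 arrays, so detection above background could not be judged.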

Additional observations from a re-analysis of the deposited data

Results flagged for a closer look

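In 102 groups of 4 arrays (a named member at a time), 5 held an array far from the other 3, and chance gives about 5.1. R220 stood at 12.87 on the second array of library 1 at 0.5 h, with the others at 11.76 to 11.91. R71 stood at 12.92 on the first array of library 2 at 2 h, with the others at 12.68 to 12.70. R75 was low on the first array of library 2 at 2 h, at 10.20 against 10.63 to 10.71, and high on the first array of library 2 at 24 h, at 10.92 against 10.34 to 10.42. R46 stood at 14.24 on the first array of library 2 at 6 h, with the others at 13.55 to 13.59. Of these 5 values, 4 lay in first arrays of library 2, at 3 different times.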

How the results depend on the processing

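Membership moved less than the counts of calls without the block. The score of R75 moved by more than its SD over libraries in 21 of the 24 alternatives. That of R62 did so in 16 and that of R11 in 10, while those of R220, N9, R7 and R93 stayed within their SD in all 24. Of the 40 members, 28 to 40 were kept over the 24 alternatives, with the lowest counts without normalization, with median scaling and without library 2 of 0 h. Without normalization the median score of all sets was 0.21 and the median difference at 2 h 0.23, and the members' median score was 0.56. The scores of R49 (-0.18), R221 (-0.0070) and R46 (-0.11) turned below 0 with median scaling, where 36 members stayed above 0. R49 also did with first hybridizations only (-0.15) and library 1 only (-0.24), and R46 with library 1 only (-0.049). The leave-out range was -0.052 to 0.78 for R54 and -0.35 to 0.90 for R62. Members above 0 h at 2 h numbered 12 with median scaling, against 20. With that scaling the scores of R63 (0.0059) and R73 (0.010) were just above 0.

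The counts below are of members. Shares over all sets were not counted for the alternatives, so these counts show only how the calls moved. Over all sets, 2, 8 and 2 passed the late, 2 h and F tests without the block, and 27, 29 and 41 with it. Without the library block, the members past the late minus early test numbered 2. They were 16 with the replicate block, 6 with median scaling, 0 with first hybridizations only or cyclic loess, 8 with the library as a random effect and 1 with treated libraries only (leave-out range 1 to 2). Those past the 2 h test numbered 1. They were 10 with the replicate block, 7 with median scaling, 2 with cyclic loess, 7 with the random effect, and 0 with an offset of 16, no normalization, second hybridizations only, treated libraries only or the sets brighter than the median (leave-out range 0 to 1). Those past the F test numbered 1. They were 19 with the replicate block, 13 with the random effect, and 0 without normalization, with cyclic loess and with single hybridizations (leave-out range 0 to 2).

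With the block, the late minus early count of 16 was 10 with first hybridizations only (leave-out range 10 to 18). The 2 h count of 10 was 20 with median scaling and 5 with first or second hybridizations only (leave-out range 3 to 14). The F count of 19 was 29 without normalization, 32 with median scaling, 11 with first and 12 with second hybridizations only (leave-out range 14 to 20). The late minus early adjusted p of R15 ranged from 0.000716 to 0.205 and that of R11 from 0.00011 to 0.100 over the alternatives, with the block among them, and the difference stayed above 0 in all of them. Their calls were lost with cyclic loess (0.0686 and 0.0737) and with first hybridizations only. The causes of these shifts were not tested. With 2 libraries per time and local background recorded as 0 for nearly all spots, small differences of dim members are not resolved.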
